A study of Mus musculus with 18 samples.

Results

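The 10 genes examined here belong to the circadian clock. They were taken by name (Tef, Dbp, Per1, Per2, Per3, Nr1d1, Nr1d2, Arntl, Cry1 and Cry2), and the choice was prompted by measured values. Tef had differed between GF-AOM and Control in 1 model fitted to these data, described below. The list was thus chosen by the GF-AOM and Control values of Tef. Of the 10, 7 were in the expression table of 10897 genes and are described here: Tef, Dbp, Nr1d1, Nr1d2, Per1, Cry1 and Cry2. Per2, Per3 and Arntl were not analysed here.

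RNA was sequenced from mouse colorectal tissue in 18 libraries, 6 in each of 3 groups. The GF-AOMS libraries came from mice labelled germ-free, carrying azoxymethane (AOM)-induced colorectal cancer and exposed to cigarette smoke. The GF-AOM libraries came from mice labelled germ-free with AOM-induced cancer and no smoke. The Control libraries came from mice labelled wild-type and specific pathogen-free (SPF), also with AOM-induced cancer. The treatment protocol reads differently: there the Control mice are normal animals, the second group is the AOM model, and all mice are placed in an SPF facility. Under the first reading GF-AOM minus Control is a difference of microbial status in mice that all received AOM, and under the second it is AOM against no AOM. GF-AOMS minus GF-AOM is smoke against no smoke under both. All mice were male C57BL/6J, 10 weeks old, kept under 12 h of light and 12 h of dark. The labels put every library in the same batch and give neither the hour at which tissue was taken nor the stretch of colon.

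The molecular clock is a feedback loop that runs in most mammalian cells with a period of about a day. CLOCK and its partner BMAL1, encoded by Arntl, bind E-box sequences and switch on the period (Per), cryptochrome (Cry) and Rev-erb (Nr1d1, Nr1d2) genes and the PAR bZIP factors Tef and Dbp; PER and CRY proteins then inhibit CLOCK and BMAL1, and the Rev-erb proteins repress Arntl. In the gut the clock is known to time epithelial renewal, absorption and immune defence, and feeding and microbial signals are known to act on its timing, so a clock gene's level depends on the hour of sampling.

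In bulk tissue a lower level of a gene in every cell and fewer cells that express it cannot be told apart. Library totals ran from 48953539 to 79233656 counts, and a clock gene had from 391 to 6802 counts in a library. Values below are per-million counts (CPM) after TMM scaling, a correction for library composition, unless given as deposited FPKM, which is also per kilobase of transcript. Epithelial content was checked with general epithelial markers (5 of 5 measured: Epcam, Krt8, Krt19, Cdh1 and Vil1), which do not check the colorectal label. Their CPM summed to 5167 to 7726 in the GF-AOMS libraries, 4652 to 6692 in the GF-AOM libraries and 6751 to 10600 in the Control libraries.

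Markers of other tissue parts were present in every group. Smooth muscle markers (5 of 5 measured) summed to 1668 to 8796 CPM in GF-AOMS libraries, 2488 to 4394 in GF-AOM libraries and 1257 to 3652 in Control libraries, and leukocyte markers (4 of 5 measured) to 2266 to 8386, 3729 to 7810 and 856 to 5058 CPM in the same order. Fabp4, the adipose marker measured (1 of 3), lay at 32.2 to 105, 34.6 to 102 and 44.2 to 224 CPM, and Uchl1, the enteric neuron marker measured (1 of 3), at 4.23 to 13.2, 5.70 to 12.4 and 4.99 to 14.3 CPM. Their part in the clock gene levels was not tested.

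The Control group was not uniform. Hoxa13, a homeobox gene of the distal hindgut, had 42.02 and 38.7 CPM in the first 2 Control libraries (replicates 1 and 2), inside the range of the 12 libraries from mice labelled germ-free (24.8 to 53.5 CPM); the 4 others, replicates 3 to 6, had 0 to 3.05 CPM. Car1, listed as a proximal colon marker, had 689 and 728 CPM in that first pair, while replicates 3 to 6 had 5335 to 19170 CPM. The summed leukocyte markers (Ptprc, Cd79a, Jchain and Lyz2) came to 3090 and 5058 CPM in the first pair, and replicates 3 to 6 had 856 to 2347 CPM. Most of that sum was Jchain, at 2659 and 3706 CPM against 557 to 1931. Cd79a also separated these libraries (10.4 and 59.7 against 3.11 to 9.59 CPM). Ptprc (32.75 and 79.94 against 19.65 to 47.12 CPM) and Lyz2 (388 and 1212 against 276 to 450 CPM) overlapped. Tef, Dbp, Nr1d1 and Nr1d2 separated the same libraries, so each comparison with Control is given with all 6, without replicates 1 and 2, and without replicates 3 to 6. What part colon position played in them was not tested.

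Promoter windows of 4 of the genes are shown because these 4 make up the pairs called on Pearson's r both over all 18 libraries and with colon position classes centred: Tef with Nr1d2, and Per1 with Cry2. Each window runs from 250 bases before to 50 bases after the RefSeq gene start (build GRCm38.p6), 5′ to 3′ on the gene's own strand. The RefSeq start can differ from the gene position printed further below, and the whole Tef and Per1 windows lie inside those printed positions. Capitals mark an E-box (CACGTG) or an E-prime box (CACGTT, read AACGTG on the other strand). The Tef window is chr15:81802423-81802722 on the plus strand, that of Nr1d2 is chr14:18239057-18239356 on the minus strand, that of Per1 is chr11:69098699-69098998 on the plus strand and that of Cry2 is chr2:92434020-92434319 on the minus strand.
Tef: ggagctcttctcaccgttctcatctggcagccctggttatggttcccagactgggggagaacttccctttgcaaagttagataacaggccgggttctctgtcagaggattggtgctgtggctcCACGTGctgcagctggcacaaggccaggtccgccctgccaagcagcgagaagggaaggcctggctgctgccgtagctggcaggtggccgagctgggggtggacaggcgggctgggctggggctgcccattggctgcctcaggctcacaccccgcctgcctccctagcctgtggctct
Nr1d2: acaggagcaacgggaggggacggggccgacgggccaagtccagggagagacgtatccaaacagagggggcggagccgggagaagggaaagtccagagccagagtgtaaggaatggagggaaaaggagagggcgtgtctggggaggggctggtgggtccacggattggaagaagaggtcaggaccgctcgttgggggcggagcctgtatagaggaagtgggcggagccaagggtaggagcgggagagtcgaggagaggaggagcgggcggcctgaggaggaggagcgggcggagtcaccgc
Per1: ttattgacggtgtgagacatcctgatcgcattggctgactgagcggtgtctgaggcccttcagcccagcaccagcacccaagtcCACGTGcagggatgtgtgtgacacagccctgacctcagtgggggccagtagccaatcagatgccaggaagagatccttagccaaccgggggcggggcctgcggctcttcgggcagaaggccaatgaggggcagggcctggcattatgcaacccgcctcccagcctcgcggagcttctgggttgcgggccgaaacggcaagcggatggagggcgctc
Cry2: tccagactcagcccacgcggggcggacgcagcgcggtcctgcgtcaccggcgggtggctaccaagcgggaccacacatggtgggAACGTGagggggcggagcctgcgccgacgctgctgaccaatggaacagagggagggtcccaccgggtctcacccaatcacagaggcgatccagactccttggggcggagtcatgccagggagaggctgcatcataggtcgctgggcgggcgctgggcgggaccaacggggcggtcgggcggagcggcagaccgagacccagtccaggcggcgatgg

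Motif positions take -1 as the base just before the RefSeq gene start. The Tef window held an E-box at -127, the Per1 window an E-box at -166 and the Cry2 window an E-prime box at -166. Nr1d2 held neither. Among the windows not printed, a second Tef promoter had an E-box at -138, Cry1 had an E-box at -60 and an E-prime box at -79, and Nr1d1 had an E-prime box at -28; Dbp and a second Per1 promoter had none of the motifs searched. Across 32851 promoter windows of the same length, searched on both strands, 7.15% held an E-box and 4.68% an E-prime box. The D-box TTANGTAA (2.32% of windows), the cyclic AMP response element TGACGTCA (1.79%) and the Rev-erb core TAGGTCA (2.61%) were found in none of the windows of the 7 measured genes.

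Tef (thyrotroph embryonic factor, chr15:81802421-81826863 in GRCm38, as are the positions that follow, plus strand) encodes a PAR bZIP transcription factor that activates genes through D-boxes. Its lowest, median and highest levels were 45.9, 59.6 and 88.0 CPM in GF-AOMS, 57.0, 73.4 and 99.9 in GF-AOM, and 16.0, 52.6 and 74.2 CPM in Control. The groups overlapped, but Control replicates 1 and 2 lay at 16.0 and 21.1 CPM, below all 12 libraries from mice labelled germ-free and below the other Control libraries (41.7 to 74.2 CPM). Means were 62.0 ± 14.0 CPM in GF-AOMS, 75.3 ± 16.5 in GF-AOM and 46.8 ± 24.3 CPM in Control (SD, n = 6 each).

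Dbp (albumin D-site binding protein, chr7:45705088-45710203, plus strand) encodes a second PAR bZIP activator and is known for one of the widest daily swings of any clock output. Its lowest, median and highest levels were 12.8, 30.1 and 80.7 CPM in GF-AOMS, 23.5, 45.4 and 56.9 in GF-AOM, and 7.84, 31.2 and 35.0 CPM in Control. GF-AOMS replicates 1 and 2 reached 69.8 and 80.7 CPM while the other GF-AOMS libraries lay at 12.8 to 35.8 CPM, so that the SD was 69.2% of the mean in GF-AOMS, against 30.1% in GF-AOM and 51.2% in Control. As with Tef, Control replicates 1 and 2 were the lowest of all 18 libraries, at 7.84 and 9.64 CPM. Dbp overlaps Sphk2 on the opposite strand, and since the strand setting of the counting is not given in the sources used here, reads of the 2 genes may not be separated.

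Nr1d1 (chr11:98767932-98775333, minus strand) encodes the nuclear receptor Rev-erb alpha, which represses Arntl and many metabolic genes. Its lowest, median and highest levels were 40.2, 50.4 and 60.0 CPM in GF-AOMS, 41.5, 47.1 and 86.7 in GF-AOM, and 30.03, 80.2 and 123.5 CPM in Control. The Control libraries lay on both sides of the others: replicates 1 and 2, at 30.03 and 30.07 CPM, were below all 12 libraries from mice labelled germ-free, and replicates 3 to 6, at 78.9 to 123.5 CPM, were above 11 of those 12. The exception was GF-AOM replicate 4, at 86.7 CPM.

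Nr1d2 (chr14:18204054-18239127, minus strand) encodes Rev-erb beta, which shares many targets of Rev-erb alpha. Its levels ran from 53.3 over a median of 60.4 to 94.0 CPM in GF-AOMS, from 55.7 over 78.1 to 94.1 in GF-AOM, and from 32.9 over 73.1 to 87.2 CPM in Control. Control replicates 1 and 2 were again the 2 lowest of the 18, at 32.9 and 40.3 CPM, while replicates 3 to 6 lay at 70.9 to 87.2 CPM, within the spread of the other groups. In the mean over libraries, Control replicates 3 to 6 stood above Control replicates 1 and 2 by a ratio of 3.28 for Tef, 3.78 for Dbp, 3.37 for Nr1d1 and 2.18 for Nr1d2.

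Per1 (chr11:69095217-69109960, plus strand) encodes a period protein, an inhibitor of CLOCK and BMAL1 that also responds quickly to glucocorticoids. Its lowest, median and highest levels were 19.1, 22.8 and 36.2 CPM in GF-AOMS, 15.1, 22.4 and 47.0 in GF-AOM, and 10.4, 11.8 and 29.4 CPM in Control. Here low Control values were not limited to replicates 1 and 2 (10.4 and 11.7 CPM), since replicates 4 and 6 were at 10.9 and 11.9 CPM and only replicates 3 and 5 reached 29.4 and 21.4 CPM. All 12 libraries from mice labelled germ-free were above those 4 low Control libraries.

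The cryptochromes are the other inhibitors of CLOCK and BMAL1. Cry1 (chr10:85131700-85185064, minus strand) had lowest, median and highest levels of 8.96, 11.5 and 16.5 CPM in GF-AOMS, 10.5, 13.4 and 17.97 in GF-AOM, and 13.3, 14.9 and 21.4 CPM in Control. Cry2 (chr2:92403646-92434043, minus strand) had 11.4, 12.0 and 17.96 CPM in GF-AOMS, 8.65, 12.7 and 22.0 in GF-AOM, and 9.59, 16.5 and 22.9 CPM in Control. Neither gene put Control replicates 1 and 2 together at an end of the range: Cry1 was highest in replicate 1, and Cry2 was at 16.5 CPM in replicate 1 and 9.59 CPM in replicate 2.

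**Figure D1:**
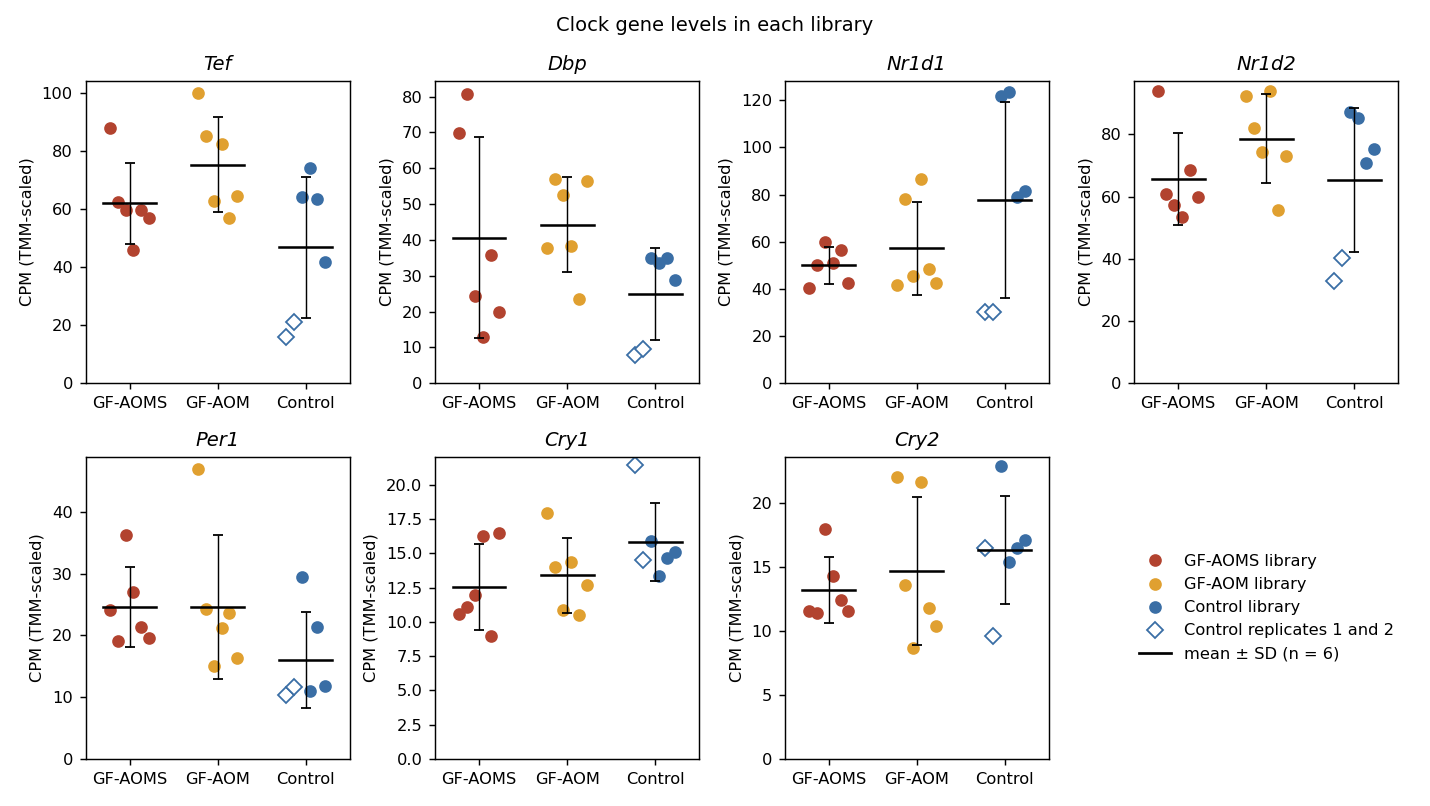
Level of each measured clock gene in every library, in TMM-scaled CPM on axes that start at 0, with 1 panel a gene and the groups GF-AOMS, GF-AOM and Control from left to right. Horizontal lines are means and bars are SD (n = 6); open diamonds are Control replicates 1 and 2, which lie below every other library for Tef, Dbp, Nr1d1 and Nr1d2 and not for Cry1 or Cry2.

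On the per-length scale the order of the genes was led by Nr1d1, whose mean was 14.3 FPKM in GF-AOMS, 16.3 in GF-AOM and 23.1 in Control, and Cry2 was at the bottom with 1.85, 2.03 and 2.35 FPKM in the same groups. Ordered by mean CPM, Tef, Dbp and Nr1d2 were highest in GF-AOM and lowest in Control, Nr1d1, Cry1 and Cry2 were highest in Control and lowest in GF-AOMS, and Per1 was equal in GF-AOM and GF-AOMS (24.6 CPM each) and lowest in Control (16.0 CPM). The groups overlapped for all 7 genes, and Nr1d2 means in GF-AOMS and Control differed by less than 1 SD of either group (65.7 ± 14.8 and 65.3 ± 23.2 CPM; SD, n = 6 each).

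GF-AOM against Control is the contrast in which Tef drew attention to these genes, so its values for the clock genes are a description and no p is given for them. Calls and overlaps are counted only to set the background, and nothing is read from them. The fitted log2 difference (edgeR, all 18 libraries) of GF-AOM minus Control was 0.69 (SE 0.30) for Tef, 0.83 (SE 0.45) for Dbp, 0.62 (SE 0.30) for Per1 and 0.27 (SE 0.22) for Nr1d2. It was negative for Nr1d1 at -0.44 (SE 0.32), for Cry1 at -0.24 (SE 0.17) and for Cry2 at -0.15 (SE 0.23). At an adjusted p under 0.05 (edgeR quasi-likelihood test, Benjamini-Hochberg over all genes) 0.00918% of all genes were called in this contrast and 0 of the 7 clock genes. The groups did not overlap for 0.762% of all genes and for 0 of the 7. The median log2 difference was 0.27 over the 7 genes and near 0 over all genes. With each library's slope of log2 CPM on gene length as a covariate, the log2 difference was 0.91 for Tef and Per1, 0.54 for Dbp, 0.39 for Nr1d2, -0.14 for Nr1d1, -0.16 for Cry1 and 0.09 for Cry2.

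These differences depended on which Control libraries were kept. With Control replicates 3 to 6 left out, the log2 difference of GF-AOM minus Control was 2.01 for Tef, 2.33 for Dbp, 1.10 for Nr1d2, 1.15 for Per1, 0.92 for Nr1d1, -0.42 for Cry1 and 0.17 for Cry2. With Control replicates 1 and 2 left out instead, it was 0.31 for Tef, 0.42 for Dbp, -0.02 for Nr1d2, 0.42 for Per1, -0.83 for Nr1d1, -0.14 for Cry1 and -0.29 for Cry2. In that fit 6.2% of all genes were called by edgeR and 1 of the 7, and nothing is read from this. The fit without replicates 3 to 6 called 0.00918% of all genes and 1 of the 7, Tef, and nothing is read from that either. The model that drew attention to Tef held a term for the 4 libraries with Hoxa13 under 10 CPM, which leaves Control replicates 1 and 2 to stand for Control. It gave Tef a log2 difference of 2.02, and it too called 0.00918% of all genes and 1 of the 7. Nr1d1 thus had opposite signs against the 2 subsets of the Control group, whereas Tef, Dbp and Per1 were positive against each.

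**Figure D2:**
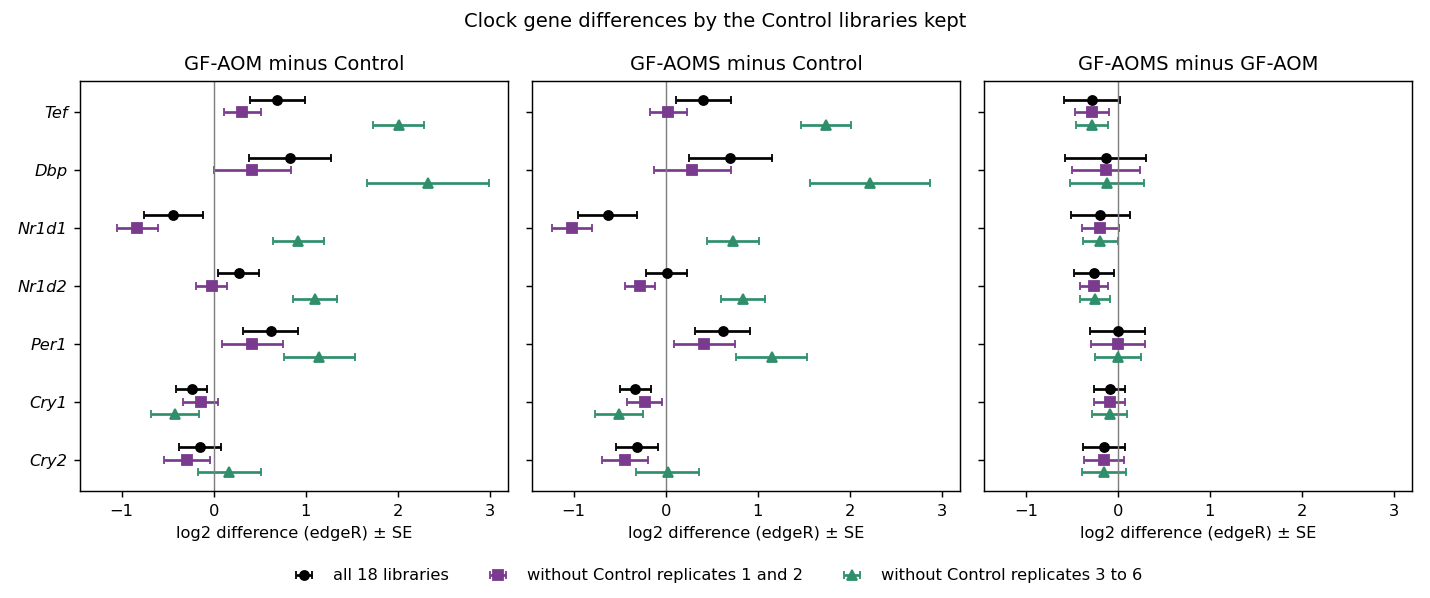
Log2 difference of each clock gene from edgeR, with bars of 1 SE, for GF-AOM minus Control, GF-AOMS minus Control and GF-AOMS minus GF-AOM (left to right). Circles use all 18 libraries, squares leave out Control replicates 1 and 2, and triangles leave out Control replicates 3 to 6; for Tef the circle, square and triangle of GF-AOM minus Control lie at 0.69, 0.31 and 2.01, while the smoke contrast in the third panel hardly moves.

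Smoke against no smoke, GF-AOMS minus GF-AOM, showed no called difference in any clock gene. The log2 difference was -0.28 (SE 0.30) for Tef, -0.13 (SE 0.44) for Dbp, -0.19 (SE 0.32) for Nr1d1 and -0.26 (SE 0.22) for Nr1d2. It was 0.00 (SE 0.30) for Per1, -0.09 (SE 0.17) for Cry1 and -0.15 (SE 0.23) for Cry2. Each had an adjusted p of 1 by edgeR's quasi-likelihood test with Benjamini-Hochberg adjustment over all genes. In this contrast 0% of all genes were called, although 119 had an unadjusted p under 0.05, none of them a clock gene, and DESeq2 called 3, again none of the 7. The groups did not overlap for 0.0642% of all genes and for 0 of the 7. Standard errors were 0.17 to 0.44 on the log2 scale, so a missed threshold does not show that the levels were alike.

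GF-AOMS minus Control combines both differences and shares its Control libraries with the contrast above. Its log2 differences were 0.41 (SE 0.30) for Tef, 0.70 (SE 0.45) for Dbp, 0.62 (SE 0.30) for Per1, 0.01 (SE 0.22) for Nr1d2, -0.63 (SE 0.32) for Nr1d1, -0.33 (SE 0.17) for Cry1 and -0.31 (SE 0.23) for Cry2. The edgeR quasi-likelihood test with Benjamini-Hochberg adjustment gave 0.734% of all genes as called and 0 of the 7, with adjusted p-values of 0.314 (Per1) to 0.988 (Nr1d2). DESeq2 also called 0 of the 7, against 375 of all 10897 genes. Unadjusted p-values were under 0.05 for 0 of the 7 by edgeR and 1 by DESeq2, against 1763 and 2035 of all genes. The groups did not overlap for 0.798% of all genes and for 0 of the 7. With the gene length slope as a covariate, 3 of these differences were smaller by more than 1.5 times, at -0.30 (SE 0.32) for Nr1d1, 0.34 (SE 0.52) for Dbp and -0.05 (SE 0.20) for Cry2. In the same fit Tef was at 0.65 (SE 0.33), Per1 at 0.90 (SE 0.29), Nr1d2 at 0.13 (SE 0.24) and Cry1 at -0.26 (SE 0.18), and 0 of the 7 were called.

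Nr1d1 in GF-AOMS minus Control had opposite signs against the 2 subsets of the Control group. Its log2 difference was -1.02 (SE 0.22) without Control replicates 1 and 2 and 0.73 (SE 0.28) without Control replicates 3 to 6. These subsets were taken after seeing the data, and replicates 1 and 2 are the 2 lowest libraries in Nr1d1, so the values are a description and no test is attached. Without replicates 1 and 2, 6.91% of all genes were called and 1 of the 7, and nothing is read from this. Of the other clock genes, Tef was at 0.03 and 1.74, Dbp at 0.29 and 2.22, Nr1d2 at -0.28 and 0.84, Per1 at 0.42 and 1.15, Cry1 at -0.23 and -0.51, and Cry2 at -0.44 and 0.02 without replicates 1 and 2 and without replicates 3 to 6, in that order.

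Whether the clock genes varied together between libraries was examined on each library's deviation from its group mean of log2 CPM. Differences between group means thus do not enter, but over all 18 libraries the split within Control does. The model that drew attention to Tef left Control replicates 1 and 2 to stand for Control. The p-values of pairs with Tef over all 18 libraries are therefore not independent of how the list was chosen. All 21 pairs of the 7 genes were tested by permuting libraries within groups (permutation test, 100000 draws, two-sided), with Benjamini-Hochberg adjustment over the 21 pairs. Because Control replicates 1 and 2 stand apart, the leading correlations are also given over the 12 libraries from mice labelled germ-free and with deviations taken within colon position classes (Hoxa13 under or over 10 CPM).

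Tef and Nr1d2 varied most closely together. Over the 12 libraries from mice labelled germ-free, Pearson's r was 0.90 and Spearman's rho 0.81 (permutation p = 0.00034 and 0.00094, adjusted 0.00714 and 0.0197). Over all 18 libraries r was 0.94 and rho 0.89 (permutation p = 1e-05, the smallest these draws can give, and 2e-05, adjusted 0.00021 and 0.00042), and r was 0.87 without the 2 libraries farthest from the median of Tef. With colon position classes centred, r was 0.81 and rho 0.74 (permutation p = 0.00022 and 0.00152, adjusted 0.00462 and 0.0319), and r was 0.82 without the 2 farthest libraries. With the gene length slope removed, r was 0.93 (permutation p = 5e-05, adjusted 0.000735). GF-AOM replicate 1 and GF-AOMS replicate 1 were high in both genes (99.9 and 88.0 CPM for Tef, 92.4 and 94.0 CPM for Nr1d2). Among 9031 genes with a mean of at least 2 FPKM, Nr1d2 ranked 1 in likeness to Tef over all 18 libraries and over the 12.

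Per1 and Cry2 formed the second pair that was called with colon position classes centred. Pearson's r was 0.71 and rho 0.66 over 18 libraries (permutation p = 0.00199 and 0.00776, adjusted 0.0104 and 0.0407) and 0.54 without the 2 libraries farthest from the median of Per1. With colon position classes centred, r was 0.67 and rho 0.59 (permutation p = 0.00217 and 0.013, adjusted 0.0228 and 0.091), and r was 0.50 without the 2 farthest libraries. Over the 12 libraries from mice labelled germ-free, r was 0.79 and rho 0.77 (permutation p = 0.0049 and 0.0101, adjusted 0.0514 and 0.106), and r was 0.60 without the 2 farthest. The threshold was thus passed on r and missed on rho with the centring, and missed on both over the 12. Among the same 9031 genes, Cry2 ranked 58 in likeness to Per1 over all 18 libraries and 49 over the 12. Per1 ranked 484 and 175 in likeness to Cry2, so many genes outside the clock list were closer to Cry2. Cry2 also followed each library's slope of log2 CPM on gene length, a measure of how long and short genes are covered (r = 0.64 and rho = 0.65 over 18 libraries, permutation p = 0.0042 and 0.00751, adjusted over 7 genes 0.0294 and 0.036; r = 0.63 without the 2 libraries farthest from the median). Per1 had r = 0.48 and rho = 0.54 with that slope (permutation p = 0.0407 and 0.0325, adjusted 0.0951 and 0.0757; r = 0.46 without the 2 farthest), and Nr1d1 had r = 0.51 and rho = 0.60 (permutation p = 0.0144 and 0.0103, adjusted 0.0506 and 0.036; r = 0.52 without the 2 farthest). With the slope removed, Per1 and Cry2 had an r of 0.60 and a rho of 0.49 (permutation p = 0.0152 and 0.0485, adjusted 0.0457 and 0.146). Their r was then 0.28 without the 2 libraries farthest from the median of Per1, so that value rests on those libraries.

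Dbp was correlated with Tef and Nr1d2 over all 18 libraries and missed the threshold over the 12 and with colon position classes centred. Its r with Tef was 0.76 over 18 libraries (rho 0.78, permutation p = 0.00093 and 0.00092, adjusted 0.00976 and 0.00966) and with Nr1d2 0.77 (rho 0.75, permutation p = 0.00168 and 0.00325, adjusted 0.0104 and 0.0227). Over the 12 libraries from mice labelled germ-free the same r values were 0.56 and 0.57 (permutation p = 0.0586 and 0.0605, adjusted 0.312 for each). Over 18 libraries they were 0.62 and 0.69 without the 2 libraries farthest from the median of the first gene. With colon position classes centred they were 0.52 and 0.55 (permutation p = 0.0258 and 0.0473, adjusted 0.135 and 0.198), and with the gene length slope removed 0.90 and 0.88 (permutation p = 7e-05 and 0.00025, adjusted 0.000735 and 0.00175).

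Nr1d1 and Tef, and Nr1d1 and its paralogue Nr1d2, missed the threshold over the 18 libraries and over the 12. Against Tef its r was 0.06 over the 12 libraries from mice labelled germ-free (rho 0.01, permutation p = 0.851 and 0.974, adjusted 0.963 and 0.975), and 0.77 when the 6 Control libraries were added (rho 0.62, permutation p = 0.0169 and 0.0267, adjusted 0.0687 and 0.0934). Against Nr1d2 its r was 0.07 over the 12 and 0.73 over the 18 (permutation p = 0.835 and 0.0196, adjusted 0.963 and 0.0687). Over the 12 both values rest on the 2 libraries farthest from the median of the first gene of each pair, since without them r was 0.73 against Tef and -0.33 against Nr1d2. Control replicates 1 and 2 were low in all 3 genes. Over 18 libraries r was 0.52 and 0.46 without the 2 libraries farthest from the median of the first gene of each pair (Tef, Nr1d1), and 0.20 and 0.18 with colon position classes centred (permutation p = 0.478 and 0.544, adjusted 0.761 for each). With the gene length slope removed, r was 0.73 against Tef and 0.71 against Nr1d2 (permutation p = 0.0115 and 0.0111, adjusted 0.0402 for each). Without the 2 farthest libraries these were 0.51 and 0.49. The rho values, 0.60 and 0.57, missed the threshold (permutation p = 0.03 and 0.035, adjusted 0.122 for each). Dbp and Nr1d1 then had r = 0.73 and rho = 0.62 (permutation p = 0.00556 and 0.0154, adjusted 0.0292 and 0.0808), and r was 0.55 without the 2 farthest libraries. The difference between the correlations over 12 and 18 libraries was not tested.

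Cry1 followed none of the others beyond the threshold on Pearson's r. Its r was -0.50 with Dbp (permutation p = 0.0555, adjusted 0.13) and 0.45 with Cry2 (permutation p = 0.0687, adjusted 0.144; rho 0.63, p = 0.0112, adjusted 0.047). Of the 21 pairs, 4 were called on Pearson's r over all 18 libraries, 1 over the 12 and 2 with colon position classes centred.

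**Figure D3:**
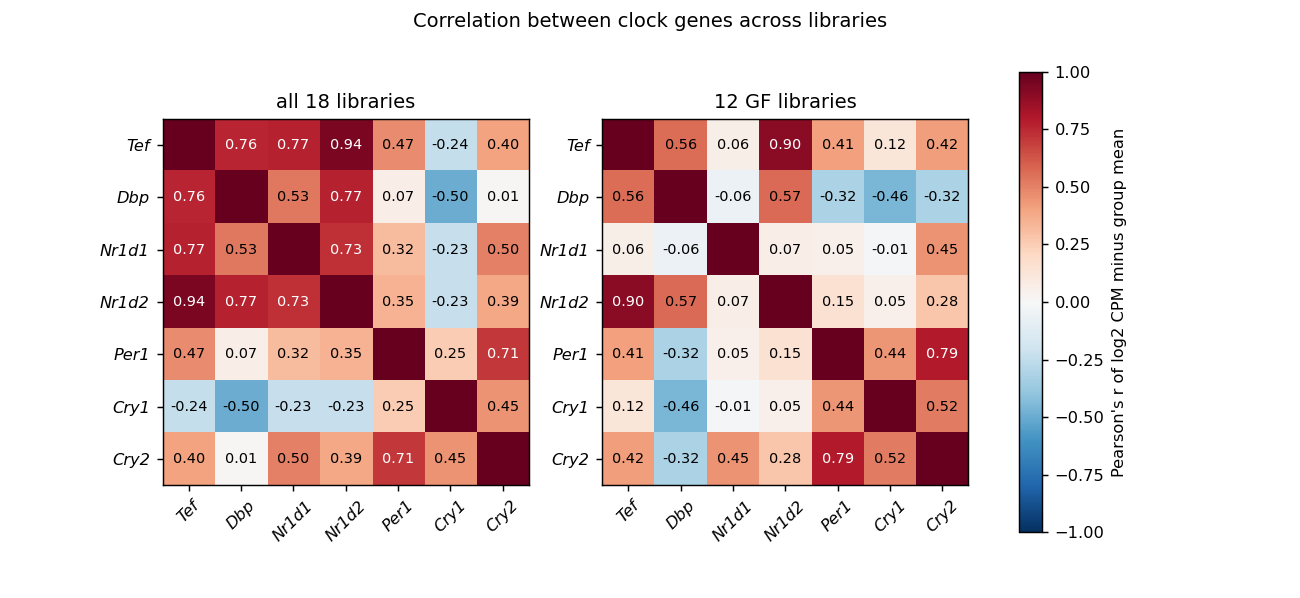
Pearson's r between the 7 clock genes, from deviations of log2 CPM from the group mean, over all 18 libraries (left) and over the 12 libraries from mice labelled germ-free (right); red is positive, blue negative, and the diagonal is each gene with itself. Tef with Nr1d2 stays dark red in both (0.94 and 0.90), and Nr1d1 is 0.77 and 0.06 with Tef, 0.73 and 0.07 with Nr1d2, and 0.50 and 0.45 with Cry2. The 0.06 is 0.73 without the 2 libraries farthest from the median of Tef.

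**Figure D4:**
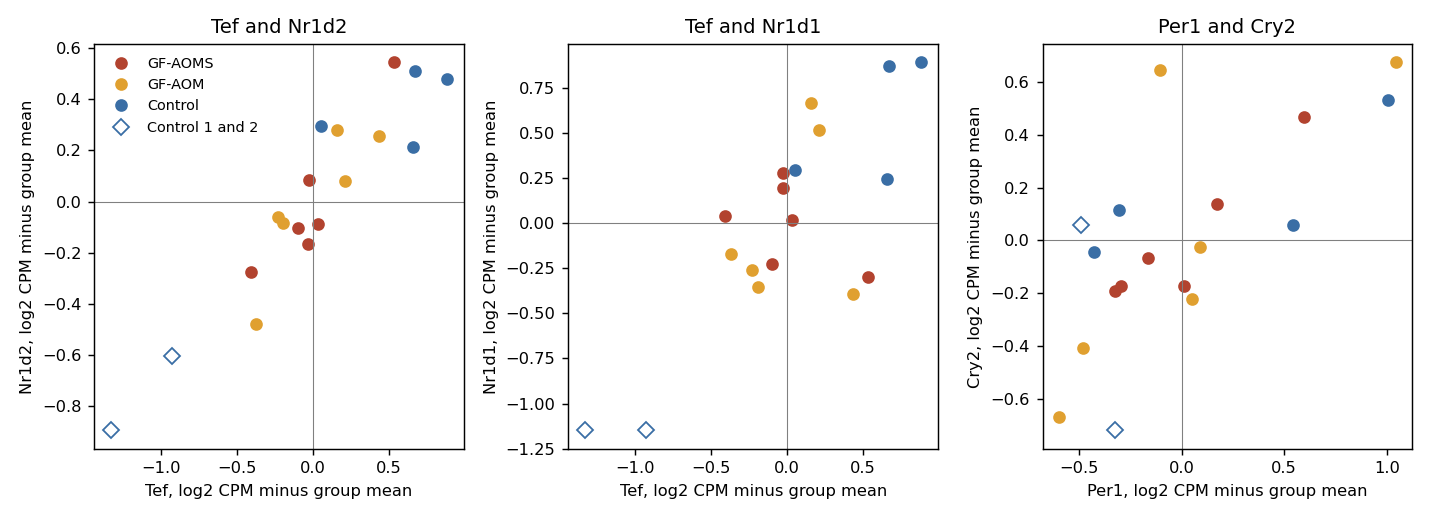
Each point is a library, placed by its deviation from its group mean in log2 CPM, for Tef and Nr1d2 (left), Tef and Nr1d1 (middle) and Per1 and Cry2 (right). In the left panel all groups lie along 1 line; in the middle panel the open diamonds of Control replicates 1 and 2 lie apart at the lower left, and r over the 12 libraries from mice labelled germ-free is 0.06, or 0.73 without the 2 of them farthest from the median of Tef.

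Genes outside the clock list that varied most like each member were ranked by the same r over 18 libraries among the 9031 genes, as a description. After Nr1d2, those most like Tef were Pbld2 and Adck2 (0.90 each, with 0.75 and 0.65 over the 12 libraries from mice labelled germ-free). Nr1d2 was followed, after Tef, by Tfap4 (0.91) and Pbld2 (0.90). Most like Dbp were Car8 (0.86), Ctso and Tlr3 (0.82 each), and most like Nr1d1 were Mier3 (0.90), Slc35d1 and Slc52a2 (0.89 each). Per1 was closest to Klf9 (0.82 over 18 libraries and 0.85 over the 12), which encodes a Krüppel-like factor induced by glucocorticoids, then to Plpp3 and Hgsnat (0.80 each). Cry1 was closest to Slc9a3r2 (0.88), Afap1l1 (0.76) and Dnajb4 (0.75), and Cry2 to Nrp2 (0.93), Jade1 and Kremen1 (0.91 each). The most opposite genes were Anxa3 for Tef (-0.87), Nans for Dbp (-0.87), Smim31 for Nr1d1 (-0.90), Txn1 for Nr1d2 (-0.88), Comtd1 for Per1 (-0.84), Tmco6 for Cry1 (-0.74) and Gtf2h3 for Cry2 (-0.93). These 18 libraries share the same scaling and the split of the Control group.

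Other clock-linked genes were taken from 8 lists naming 35 genes, of which 21 were measured. None of the 21 was called by edgeR's quasi-likelihood test in any of the 3 comparisons, against 0.00918%, 0.734% and 0% of all genes in GF-AOM minus Control, GF-AOMS minus Control and GF-AOMS minus GF-AOM. Their median log2 difference was -0.12, -0.07 and -0.01 in those comparisons. Unadjusted p-values by edgeR were under 0.05 for 4, 3 and 0 of them, against 1713, 1763 and 119 of all 10897 genes. DESeq2 called 1 (Tspan4), 2 (Nfil3 and Tspan4) and 0 of them, against 284, 375 and 3 of all genes. Nothing is read from these counts.

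Of the activators 1 of 3 was measured, Clock, which encodes the partner of BMAL1, at a log2 difference of -0.12 (SE 0.20) in GF-AOM minus Control and 0.08 (SE 0.20) in GF-AOMS minus Control. Among the transcriptional repressors 2 of 4 were measured. Bhlhe40, which encodes an E-box repressor, was at -0.27 (SE 0.19) and -0.22 (SE 0.19). Nfil3, whose product represses through the D-boxes that TEF and DBP activate, was at -0.60 (SE 0.20) in GF-AOM minus Control and -0.71 (SE 0.20, adjusted p = 0.1 by edgeR's quasi-likelihood test with Benjamini-Hochberg adjustment) in GF-AOMS minus Control.

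The kinases and ubiquitin ligases that set the stability of PER and CRY were measured for 6 of 8 genes, and 5 of the 6 were negative in GF-AOM minus Control. Gsk3b, a kinase gene, was at -0.51 (SE 0.23) there and at -0.28 (SE 0.23) in GF-AOMS minus Control. Among the output genes, 5 of 8 were measured. Tspan4, which encodes a tetraspanin, had the widest difference of the 21, at 1.07 (SE 0.27) in GF-AOM minus Control and 0.89 (SE 0.27, adjusted p = 0.127 by edgeR's quasi-likelihood test with Benjamini-Hochberg adjustment) in GF-AOMS minus Control. Of the glucocorticoid-responsive genes 5 of 6 were measured, and 3 of the 5 were negative in each comparison with Control (medians -0.09 and -0.07). Tsc22d3 was at 0.56 (SE 0.20) in GF-AOM minus Control and 0.32 (SE 0.20) in GF-AOMS minus Control. Klf9, the gene closest to Per1, showed no called difference. Tipin, the clock partner gene measured (1 of 2), was at 0.24 (SE 0.14) and 0.23 (SE 0.14), and the PAR bZIP list held no measured gene beyond Tef and Dbp.

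**Figure D5:**
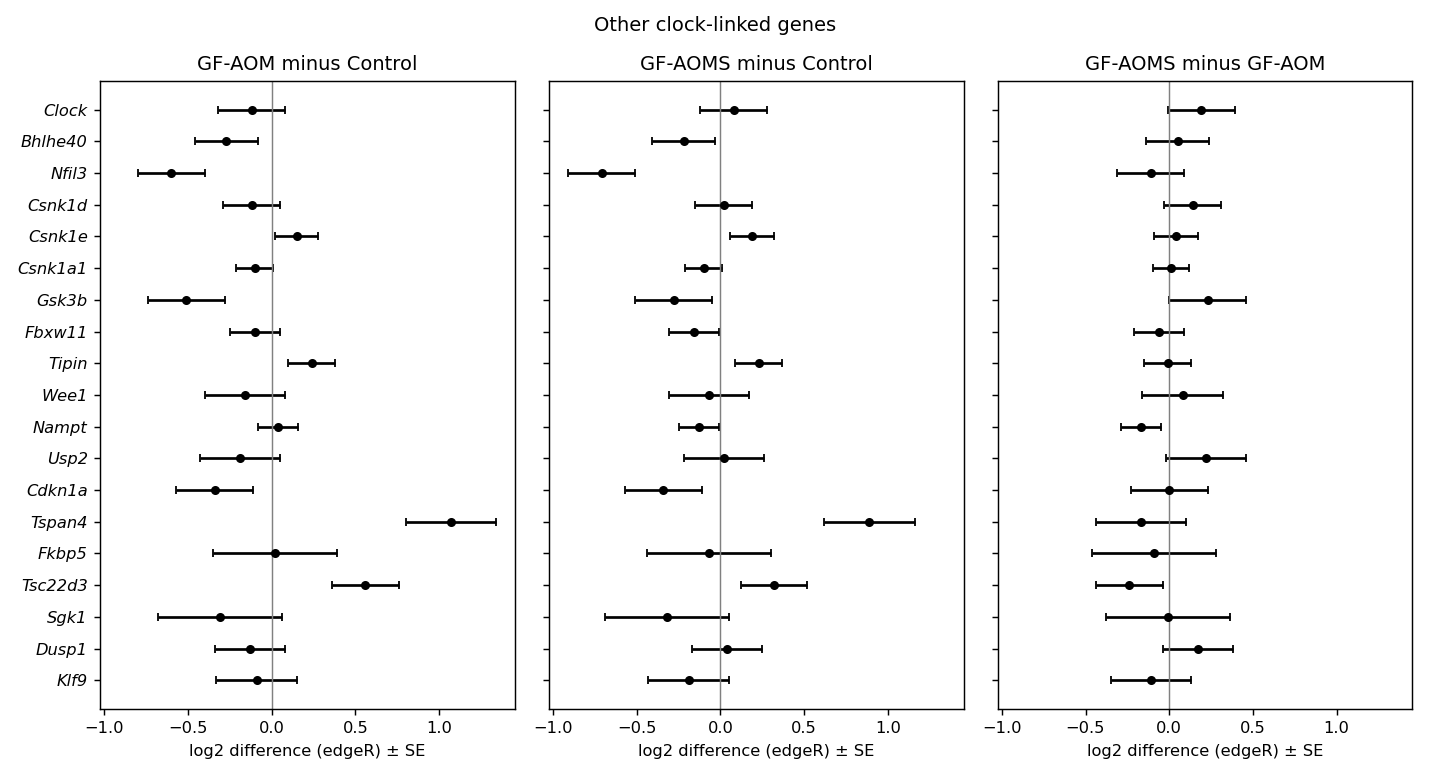
Log2 differences of 19 of the other measured clock-linked genes from edgeR, with bars of 1 SE, for GF-AOM minus Control, GF-AOMS minus Control and GF-AOMS minus GF-AOM (left to right). Tspan4 lies farthest to the right in the first 2 panels (1.07 and 0.89) and Nfil3 farthest to the left (-0.60 and -0.71), and in the smoke panel every gene lies within 0.24 of 0.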

How the data were processed

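Whole-number counts and FPKM values per gene were taken as the authors deposited them, side by side in a table that covers 18 libraries. Per the labels' protocols, ribosomal RNA was removed and libraries were strand-specific, made from RNA whose integrity number (RIN) was 7 or more. Per the submitters' processing notes, featureCounts, DESeq2 and build GRCm39 were used, with no roles or versions given; the positions in the table equal those of GRCm38 for the 7 clock genes and are printed as such. Every gene reached 1 FPKM in at least 15 libraries, so genes below that level were not seen here.

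Counts were fitted with edgeR 4.0.16 (R 4.3.3; TMM scaling, quasi-likelihood test, 3 groups in 1 fit, Benjamini-Hochberg over 10897 genes, two-sided, calls at an adjusted p under 0.05); CPM are TMM-scaled, and log2 CPM used a prior count of 2. DESeq2 1.42.0 and limma 3.58.1 on log2(FPKM + 1) and log2(FPKM + 0.1) were alternatives, with other scalings, filters, covariates and left-out libraries. The fitting code was tested on simulated data. The members, the other clock lists, the marker lists and the naming rule (all measured members and list genes; for each member the 3 most alike and the 1 most opposite genes) were chosen with earlier results of these data known. Promoter sequences came from RefSeq (GRCm38.p6) and matched all 7 genes. At totals of 48953539 to 79233656 counts, the spread between mice, not counting error, limits precision. Values of some other clock-linked genes are not reported here.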

Additional observations from a re-analysis of the deposited data

Results flagged for a closer look

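In 3 of 21 gene and group combinations tested, the highest library lay far from the other 5 by Dixon's test, which chance alone gives in about 1 in 20 groups. Nr1d2 reached 94.05 CPM in GF-AOMS replicate 1, a gap to the next library of 0.629 of the group's range. Per1 reached 46.99 CPM in GF-AOM replicate 1, a gap of 0.713 of the range. Cry1 reached 21.43 CPM in Control replicate 1, a gap of 0.682 of the range.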

How the results depend on the processing

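The number of genes called, out of 10897, moved with the setting. In GF-AOM minus Control it was 1, against 284 by DESeq2, 0 by limma on log2(FPKM + 1) and on log2(FPKM + 0.1), 0 with only the 2 groups compared, 676 without Control replicates 1 and 2, and 0 to 356 when each library was left out in turn (356 without Control replicate 2). In GF-AOMS minus Control it was 80, against 375 by DESeq2, 19 and 20 by limma with those pseudocounts, 0 with only the 2 groups compared, 6 with the length slope, 0 with the colon position term, 753 without Control replicates 1 and 2, 0 without replicates 3 to 6, and 0 to 493 over left-out libraries. In GF-AOMS minus GF-AOM it was 0, against 3 by DESeq2 and 2 with the length slope. Correlated pairs numbered 4, against 13 on log2(FPKM + 1), 1 over the 12 libraries from mice labelled germ-free, 2 with colon position centring, 7 with the length slope removed, and 3 to 7 over left-out libraries (7 without GF-AOM replicate 1). The cause was not tested. The fits without 2 or 4 Control libraries and the pairs with the length slope removed were added after seeing the data; a filter at 5 FPKM in 6 libraries left 4 of the 7 clock genes in the fit.

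The replicate numbers did not pair the libraries: 7 of 18 same-numbered pairs correlated above 0.1 (range -0.619 to 0.517) and 4 of 18 libraries correlated best with their own number. With a replicate block 2 genes were called in GF-AOM minus Control, 33 in GF-AOMS minus Control and 0 in GF-AOMS minus GF-AOM.

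Some log2 differences changed sign. Per1 in GF-AOMS minus GF-AOM, at 0.00, was -0.00 without Control replicates 3 to 6 and with only the 2 groups compared, -0.01 with the length slope and with the replicate block, and -0.14 to 0.29 over left-out libraries. In GF-AOMS minus Control, Nr1d1 was 0.73 with the colon position term and 0.73 without Control replicates 3 to 6, Nr1d2 was -0.28 without Control replicates 1 and 2 and -0.13 to 0.11 over left-out libraries, and Cry2 was 0.02 with the colon position term and 0.02 without Control replicates 3 to 6. Over left-out libraries in GF-AOMS minus GF-AOM, Dbp ran from -0.44 to 0.06 and Cry1 from -0.19 to 0.01. The labels give neither sampling hour nor colon position, and the hour cannot be told apart from the groups. By Hoxa13, colon position was mixed within Control, where 4 libraries were under 10 CPM. All 12 libraries from mice labelled germ-free were at 24.8 CPM or more. Colon position is thus confounded with the groups in part, and its part in these values was not tested.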

Other observations

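Ratios of clock genes within a library do not depend on how libraries are scaled to each other. They were looked at after the levels had been seen, and GF-AOM against Control is the contrast that drew attention to Tef, so they are given as a description with no test. The FPKM ratio of Tef to Nr1d1 was 0.353 to 0.855 in GF-AOMS (median 0.449), 0.371 to 0.941 in GF-AOM (median 0.499) and 0.200 to 0.315 in Control (median 0.221). All 12 libraries from mice labelled germ-free were thus above all 6 Control libraries, including Control replicates 1 and 2, at 0.208 and 0.274, and replicates 3 to 6, at 0.200 to 0.315. On CPM the ratio was 0.903 to 2.19 in GF-AOMS, 0.949 to 2.41 in GF-AOM and 0.511 to 0.805 in Control. This is the same ratio without the per-kilobase division, so it is not a second result.

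The ratio of each of the other 10896 genes to Nr1d1 was taken in the same way. The share that was higher in all 12 than in all 6 was 0.00918%, which is 1 gene, Tef itself. The share that was lower in all 12 was 0.0642%. With Tef as the denominator, 2.41% of the other genes had a ratio that was lower in all 12 than in all 6, as Nr1d1 did. Since the values of Tef in GF-AOM and Control chose the list, nothing is read from these shares. Of the 21 pairs of clock genes, 1 was separated in this way. Per1 over Cry2 was 1.89 to 2.36 in GF-AOMS, 1.10 to 2.40 in GF-AOM and 0.711 to 1.46 in Control, so that GF-AOMS and Control did not overlap and GF-AOM overlapped both. Between GF-AOMS and Control, 0.0734% of the other genes had a ratio to Cry2 that was higher in all GF-AOMS libraries, and 0.229% had one that was lower. With Per1 as the denominator, 4.41% had a ratio that was lower in all GF-AOMS libraries, as Cry2 did, and 0% had one that was higher.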
